A study of Mus musculus with 36 samples.

Results

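Dcx, Gap43, Stmn1, Stmn2, Dpysl2, Dpysl3, Crmp1, Marcks, Marcksl1 and Basp1 encode proteins of the growth cone and of growing neurites. They were chosen by name as the 10 rows of the count table that carry these symbols, out of 16614 genes. RPFs, the fragments of mRNA that a ribosome shields from nuclease, were counted per gene in the pellet of a sucrose gradient, the fraction taken as RNA granules but in which other ribosomes may also sediment, and in fraction 5/6, which holds ribosome clusters that do not pellet. RNA-seq of whole brain homogenate gave the mRNA level. Each of 12 groups (2 genotypes, 3 kinds of library, 2 preparations) had 3 libraries, 36 in all. WT mice were C57BL/6, and FMR1 KO mice lack FMRP, the RNA-binding protein whose loss causes Fragile X syndrome. All mice were at postnatal day 5, every brain was flash frozen, and 10 brains were pooled for a preparation, so that single animals cannot be told apart. The standard preparation used 10 mM MgCl2 and stronger nuclease, and the low nuclease preparation 2.5 mM MgCl2 and weaker nuclease, so that salt and nuclease cannot be told apart between them. The libraries are of bulk tissue, in which fewer cells of a type and less RNA per cell cannot be told apart. The 3 replicates of an RPF group carried different linkers and were pooled before reverse transcription.

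A growth cone is the motile tip of an extending axon or dendrite, and its advance depends on microtubules that enter it from the shaft and on actin beneath its membrane. Part of the members act on microtubules. Dcx (doublecortin) binds and stabilises them in migrating and newly born neurons, Stmn1 and Stmn2 (stathmin and SCG10) bind tubulin dimers and favour disassembly, and Dpysl2, Dpysl3 and Crmp1 encode collapsin response mediator proteins, which bind tubulin and relay guidance signals such as semaphorins. The other members, Gap43, Basp1, Marcks and Marcksl1, encode acylated proteins at the inner face of the membrane, which are substrates of protein kinase C, bind calmodulin and hold phosphoinositides that regulate actin. mRNAs of growing neurons can travel into neurites with ribosomes that have stopped during elongation, and RNA granules are thought to be such a form of transport.

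Within the coding sequences of 7 members, some of the footprint peaks lay at the same places in all 6 standard pellet libraries. The deposited peaks are intervals of RPF coverage on a transcript, called in each library separately, each with its height in reads. The following 6 sequences are shown because each lies inside a peak in all 6 standard pellet libraries, 3 of WT and 3 of FMR1 KO. They are read 5′ to 3′ from the GENCODE M21 transcripts of GRCm38, and capitals in Marcks and Marcksl1 mark the bases that are identical between these relatives in an alignment without gaps.
Stmn1: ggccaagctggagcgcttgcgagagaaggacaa
Stmn2: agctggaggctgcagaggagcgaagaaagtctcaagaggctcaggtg
Dpysl2: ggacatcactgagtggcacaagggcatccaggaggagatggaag
Basp1: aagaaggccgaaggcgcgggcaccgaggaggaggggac
Marcks: CAAgcTGAGcGGCtTcTCCTTCAA
Marcksl1: ctttCAAatTGAGtGGCcTgTCCTTCAA

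The Stmn1 stretch (chromosome 4, gene from 134468320 to 134473843, plus strand) lay 350 to 382 nt after the start codon, near the end of the coding sequence. Its peak was the tallest on the transcript in all 6 pellet libraries, with heights of 823, 585 and 329 reads in WT and 672, 563 and 483 in FMR1 KO, and all 6 fraction 5/6 libraries had a peak there too. The Stmn2 stretch (chromosome 3, 8509360 to 8561606, plus strand) lay at 259 to 305 nt, with heights of 1758, 1036 and 905 reads in WT and 1678, 1101 and 982 in FMR1 KO, and was covered in 4 of 6 fraction 5/6 libraries. That of Dpysl2 (chromosome 14, 66802864 to 66868688, minus strand) lay at 416 to 459 nt, with heights of 2549, 1238 and 1220 reads in WT and 2373, 1311 and 1573 in FMR1 KO, and was covered in 5 of 6. Basp1 (chromosome 15, 25363277 to 25413764, minus strand) had its stretch early, at 69 to 106 nt, with heights from 313 to 741 reads. Heights are not scaled between libraries, so they follow the depth of each library. Of the 30-nt coding windows of Stmn1, 98.6% occur elsewhere in GRCm38, so its peaks may hold reads with several matches.

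Marcks and Marcksl1 are relatives, and their stretches lie in related sequence. The Marcks stretch (chromosome 10, 37133375 to 37138920, minus strand), 470 to 493 nt after the start codon, carried the tallest peak of the transcript in all 6 pellet libraries, with heights from 614 to 1533 reads. The Marcksl1 stretch (chromosome 4, 129513581 to 129515985, plus strand) lay at 289 to 316 nt, with heights from 127 to 297 reads. Of the 30-nt coding windows of Marcksl1, 53.7% occur elsewhere in GRCm38, so its peaks may hold reads with several matches. Of 24 aligned bases, 19 (79.2%) are identical between the Marcks and Marcksl1 stretches. The Marcks stretch is inside the 25-codon window with the most lysine codons of its coding sequence, 12 of 25, and that of Marcksl1 inside the span of its 7 tied richest windows, with 10 of 25 each. This lysine-rich part is the effector domain of both proteins, in which protein kinase C phosphorylates and calmodulin binds.

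In all, 11 stretches of at least 20 nt lay inside peaks of all 6 standard pellet libraries, all of them coding: 4 in Marcks, 2 in Stmn2 and 1 each in Stmn1, Dpysl2, Dpysl3, Marcksl1 and Basp1. The minimum of 20 nt was set after the intervals had been seen. The 11 made up 23.9% to 31.4% of the members' peaks in a pellet library, so most of these peaks were not shared. Over all transcripts such stretches made up 2.47% to 4.83% of the peaks. All 6 fraction 5/6 libraries covered 3 of the 11, and at least 5 of them covered 7. Here and above, the 6 include the library labelled WT fraction 5/6 replicate 3, which goes against its label as described below. All 3 FMR1 KO fraction 5/6 libraries covered 7 of the 11. Among the 8 member transcripts with a peak in every pellet library, 7 (87.5%) had such a stretch, as had 512 of all 2611 such transcripts (19.6%). Level was not matched in this comparison, and the members ranked between 23 and 408 of 16561 protein-coding genes in RPFs per kb of coding sequence in the WT pellet. By the narrower measure, in which the middle of an interval stands for its zenith and lies within 6 nt of a zenith in each pellet library, 4 zeniths recurred, 1 in Stmn2, 2 in Marcks and 1 in Basp1. They lay on 3 of 8 member transcripts (37.5%), against 361 of 2611 (13.8%) of all transcripts. This number depended on the distance allowed, with 0 at 3 nt and 9 at 12 nt.

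**Figure D1:**
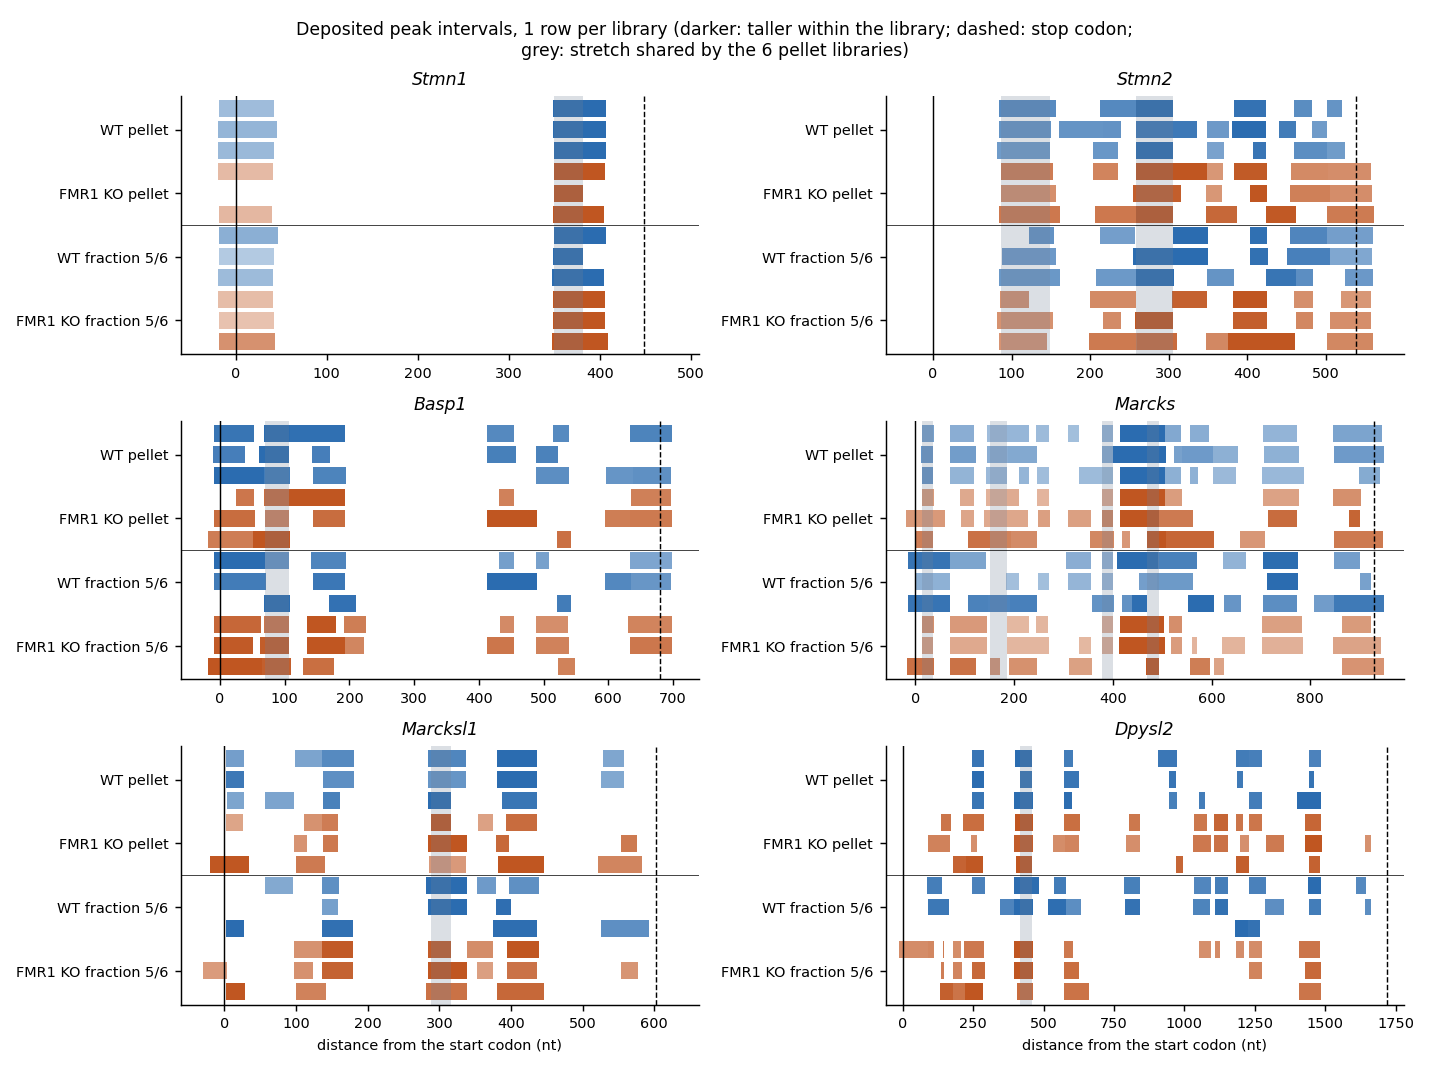
Deposited peak intervals on 6 transcripts against the distance from the start codon in nt, 1 row per standard library, WT in blue and FMR1 KO in orange, with darker bars for taller peaks within a library. Grey bands mark the stretches shared by all 6 pellet libraries, such as the one at 350 to 382 nt in Stmn1 and at 470 to 493 nt in Marcks.

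The number of peaks on the members' transcripts did not separate the genotypes. The WT pellet libraries had 43, 40 and 45 and those of FMR1 KO 46, 46 and 35. These are means of 42.7 ± 2.52 and 42.3 ± 6.35 (SD, n = 3), a difference of -0.33 (exact two-sided permutation test, p = 1.00, where 3 against 3 libraries cannot go below 0.1). With the third replicates left out, the sign turned, to 4.50 more peaks in FMR1 KO (exact permutation test, p = 0.333, the smallest possible). The tested counts were not scaled by all peaks of a pellet library, which numbered 18652 to 36435. Per 1000 peaks the members had 1.18, 1.63 and 2.07 in WT and 1.44, 2.47 and 1.37 in FMR1 KO. Marcks had the most peaks, 10 to 13 in a pellet library, and Dpysl2 had 6 to 12. Gap43 and Stmn1 had 1 or 2 each, Dpysl3 1 or 2, and Crmp1 0 to 3, and no stretch was shared in Gap43 or Crmp1. The Dcx transcript named in the count table had no peak in any of the 12 peak lists. Another Dcx transcript had 20 to 24 in each, with 0 recurrent zeniths. Shared stretches were not counted separately for that transcript.

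Some libraries went against or stood apart from their group. Counts were scaled to TMM-normalised CPM over all 36 libraries without Cdk8. Cdk8 took 36.7% to 63.4% of the counts in the standard RPF libraries. Normalised CPM is a count relative to the total of its library multiplied by a TMM factor. This factor was 0.629 to 0.911 in the standard pellet and 1.57 to 1.74 in standard RNA-seq. Normalised CPM is thus no share of the reads, and whether a member is higher in the pellet or in RNA-seq can depend on the factor. Total counts were 21710393 to 40174168 in the standard pellet, 6765065 to 33212827 in standard fraction 5/6 and 112249206 to 147216378 in standard RNA-seq. Fmr1 had 73.7 to 117 normalised CPM in 5 of the 6 standard WT RPF libraries and 5.33 to 8.45 in the 6 of FMR1 KO. The library labelled WT fraction 5/6 replicate 3 had 3.63, which goes against its label, and its profile was closest to that of FMR1 KO pellet replicate 3 (r = 0.959 over genes, against 0.913 to 0.940 with the other fraction 5/6 libraries). FMR1 KO pellet replicate 2 had correlations of 0.918 to 0.929 with the other pellet libraries, which had 0.947 to 0.958 among themselves. In 3 of the 6 low nuclease RNA-seq libraries, 10 genes took 81.5% to 85.0% of the counts, against 4.97% to 7.16% in standard RNA-seq. All 5 neuronal markers listed (such as Snap25 and Tubb3) were detected in every group, with a summed level of 2603 to 3370 normalised CPM in standard RNA-seq. The 4 endothelial markers summed to 4.93 to 7.66 and the 5 microglial ones to 96.0 to 110.

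The members ranked from 17 to 643 of 16561 protein-coding genes in WT RNA-seq per kb of exon, and their order differed between RNA-seq and footprints. In WT RNA-seq, per kb of exon, Marcksl1 was highest at 532 ± 53.1 normalised CPM per kb (SD, n = 3). Basp1 followed at 509 ± 95.3, Gap43 at 440 ± 95.5, Stmn1 at 294 ± 44.9 and Dpysl2 at 288 ± 46.5. Dpysl3 had 219 ± 36.3, Stmn2 200 ± 24.2, Marcks 141 ± 17.9, Crmp1 137 ± 31.5 and Dcx 41.8 ± 2.12. Means and SDs overlapped between neighbours from Marcksl1 to Gap43, from Stmn1 to Stmn2 and between Marcks and Crmp1. In the WT pellet, per kb of coding sequence, the order began with Stmn2 at 3207 ± 344 and Dpysl2 at 2772 ± 200. Dpysl3 had 1697 ± 113, Gap43 1546 ± 303, Crmp1 1286 ± 84.8, Marcks 927 ± 98.3 and Basp1 867 ± 113. It ended with Dcx at 614 ± 94.8, Stmn1 at 370 ± 63.0 and Marcksl1 at 247 ± 67.7. By these lengths Marcksl1 was first in WT RNA-seq and last in WT footprints. Its counts are uncertain, since 53.7% of its 30-nt coding windows occur elsewhere in the genome. Kb of exon took all annotated exons of a gene. For Stmn2, Dpysl3 and Dcx these are 5602, 6608 and 12647 bases, against 2073, 2106 and 1333 in the listed transcript. The RNA-seq order rests on this choice, and an order by the listed transcript was not made. In the WT pellet order the neighbours Stmn2 and Dpysl2, Dpysl3, Gap43 and Crmp1, Marcks and Basp1, and Stmn1 and Marcksl1 overlapped in mean and SD.

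**Figure D2:**
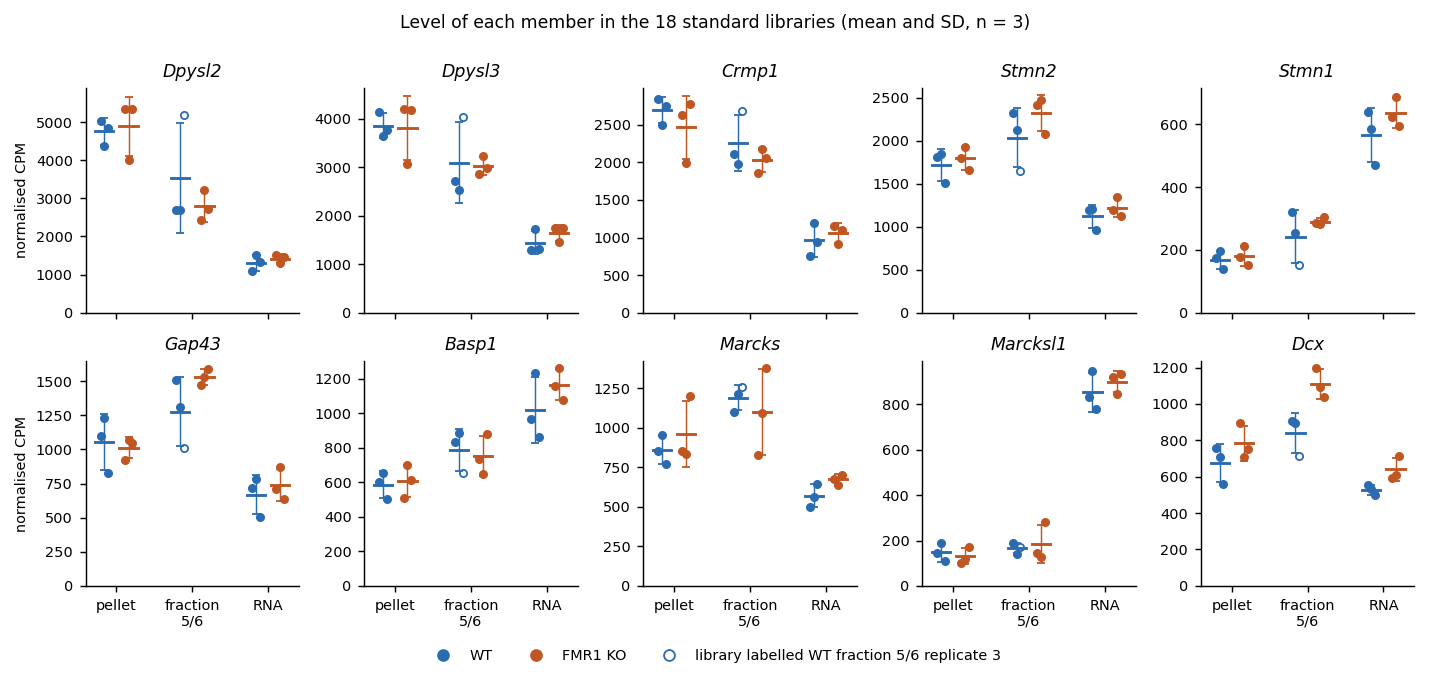
Level of the 10 members in the 18 standard libraries as normalised CPM, with WT in blue and FMR1 KO in orange, points for libraries and lines for the mean and SD (n = 3). Dpysl2, Dpysl3 and Crmp1 sit highest in the pellet and Stmn1, Basp1 and Marcksl1 highest in RNA, and the open circle is the library labelled WT fraction 5/6 replicate 3, with 5190 normalised CPM of Dpysl2.

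Occupancy is the ratio of footprints in the pellet to RNA of the whole brain homogenate. The share of an mRNA that sediments in the pellet and its load of ribosomes there cannot be told apart in it. Of the 10 members, 7 were higher in the WT pellet than in WT RNA-seq and 3 lower (threshold 0.05 for the p of edgeR's quasi-likelihood test, adjusted by Benjamini and Hochberg's method over all genes tested, as for every adjusted p given here). In FMR1 KO the counts were also 7 and 3. The tests kept Cdk8 in the library, and with Cdk8 left out the calls of Dcx and Gap43 in FMR1 KO ended. With 1 replicate number left out of all groups, the calls of Dcx, Gap43 and Marcks ended at least once in WT, and those of Dcx, Gap43, Stmn2 and Marcks in FMR1 KO. Of all 16345 genes tested, 31.7% were higher and 34.8% lower in WT, and 32.9% and 33.8% in FMR1 KO. The median log2 ratio of the members was 0.70 in WT and 0.57 in FMR1 KO, and that of all genes -0.11 and -0.03. Most genes moved in one direction or the other here, so the count by itself sets the members little apart. All ratios in this comparison are relative to the other genes of the same libraries.

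The 3 collapsin response mediator proteins had the highest ratios. Dpysl2, whose product CRMP2 promotes axon formation, had 5042, 4375 and 4854 normalised CPM in the WT pellet and 1084, 1503 and 1323 in WT RNA-seq. In FMR1 KO it had 5337, 3997 and 5343 in the pellet and 1509, 1295 and 1461 in RNA-seq. Every pellet library was above every RNA-seq library by a wide margin. The log2 ratio was 1.96 ± 0.17 (SE, 3 against 3 libraries, adjusted p = 1.9e-06) in WT and 1.87 ± 0.17 (adjusted p = 2.8e-06) in FMR1 KO, a 3.89-fold and 3.64-fold difference. Dpysl3 had 4144, 3651 and 3768 in the WT pellet against 1296, 1724 and 1322 in RNA-seq, a log2 ratio of 1.51 ± 0.18 (adjusted p = 1.7e-05), and 1.29 ± 0.18 (adjusted p = 5.6e-05) in FMR1 KO. Crmp1 had 2843, 2499 and 2750 in the WT pellet against 756, 1197 and 938 in RNA-seq, a log2 ratio of 1.58 ± 0.19 (adjusted p = 2.3e-05), and 1.30 ± 0.19 (adjusted p = 1.0e-04) in FMR1 KO. For both genes no pellet library of either genotype was as low as an RNA-seq library.

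The stathmins went in opposite directions. Stmn2, which neurons make and which is anchored to membranes, had 1808, 1848 and 1510 normalised CPM in the WT pellet and 1194, 1201 and 963 in WT RNA-seq. In FMR1 KO it had 1803, 1925 and 1661 in the pellet and 1192, 1343 and 1126 in RNA-seq. Pellet and RNA-seq libraries did not overlap, with log2 ratios of 0.72 ± 0.16 (adjusted p = 0.0017) in WT and 0.65 ± 0.16 (adjusted p = 0.0034) in FMR1 KO. Stmn1, the cytosolic stathmin, had 174, 195 and 138 in the WT pellet and 640, 586 and 471 in WT RNA-seq, and 177, 214 and 153 against 623, 688 and 596 in FMR1 KO. Its log2 ratios were -1.65 ± 0.19 (adjusted p = 1.5e-05), 3.13-fold lower, in WT and -1.72 ± 0.19 (adjusted p = 1.1e-05) in FMR1 KO. These counts are uncertain, because 415 of the 421 30-nt windows of the Stmn1 coding sequence (98.6%) occur without mismatch elsewhere in GRCm38, on 4 chromosomes. How reads with several matches were counted is not given in the sources used here.

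Among the microtubule proteins, Dcx had the log2 ratio nearest to 0. It had 758, 706 and 558 normalised CPM in the WT pellet and 555, 530 and 502 in WT RNA-seq, and 894, 711 and 750 against 595, 612 and 714 in FMR1 KO. The libraries of pellet and RNA-seq came within a few CPM of each other in WT and overlapped in FMR1 KO. The log2 ratio was 0.44 ± 0.15 (adjusted p = 0.022) in WT and 0.38 ± 0.15 (adjusted p = 0.044) in FMR1 KO. Without FMR1 KO pellet replicate 2, the value in FMR1 KO was 0.42 ± 0.18 (adjusted p = 0.062) and no longer past the threshold.

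Among the proteins at the membrane, Gap43 and Marcks were higher in footprints than in RNA-seq, and Basp1 and Marcksl1 lower. Gap43, the classical marker of axon growth and regeneration, had 1100, 1232 and 827 normalised CPM in the WT pellet and 716, 786 and 506 in WT RNA-seq, and 924, 1069 and 1044 against 712, 868 and 636 in FMR1 KO. Its log2 ratios were 0.75 ± 0.21 (adjusted p = 0.0083) and 0.54 ± 0.21 (adjusted p = 0.039), the latter 0.47 ± 0.24 (adjusted p = 0.11) without FMR1 KO pellet replicate 2. Marcks, which crosslinks actin and sequesters phosphoinositides, had 856, 953 and 770 in the WT pellet and 501, 563 and 646 in WT RNA-seq. Its log2 ratios were 0.69 ± 0.17 (adjusted p = 0.0038) in WT and 0.60 ± 0.17 (adjusted p = 0.0082) in FMR1 KO. Neither gene had a pellet library below an RNA-seq library of its genotype.

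Basp1, a relative of Gap43 in function, had 604, 655 and 504 normalised CPM in the WT pellet and 968, 1234 and 863 in WT RNA-seq. In FMR1 KO it had 511, 700 and 612 against 1158, 1265 and 1080. All pellet libraries were below all RNA-seq libraries, with log2 ratios of -0.70 ± 0.19 (adjusted p = 0.0059) in WT and -0.85 ± 0.19 (adjusted p = 0.0018) in FMR1 KO. Marcksl1 had the lowest ratio, with 143, 191 and 110 in the WT pellet against 833, 948 and 781 in WT RNA-seq, and 103, 119 and 173 against 919, 848 and 936 in FMR1 KO. This was a log2 ratio of -2.43 ± 0.24 (adjusted p = 4.2e-06), 5.39-fold lower, in WT and -2.69 ± 0.24 (adjusted p = 2.1e-06), 6.46-fold lower, in FMR1 KO. Its counts are uncertain as well, since 308 of its 574 coding windows of 30 nt (53.7%) occur elsewhere in the genome, on 3 chromosomes. Of the other members, Stmn2 had 14 of 511 such windows (2.74%) and the remaining 7 had none.

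**Figure D3:**
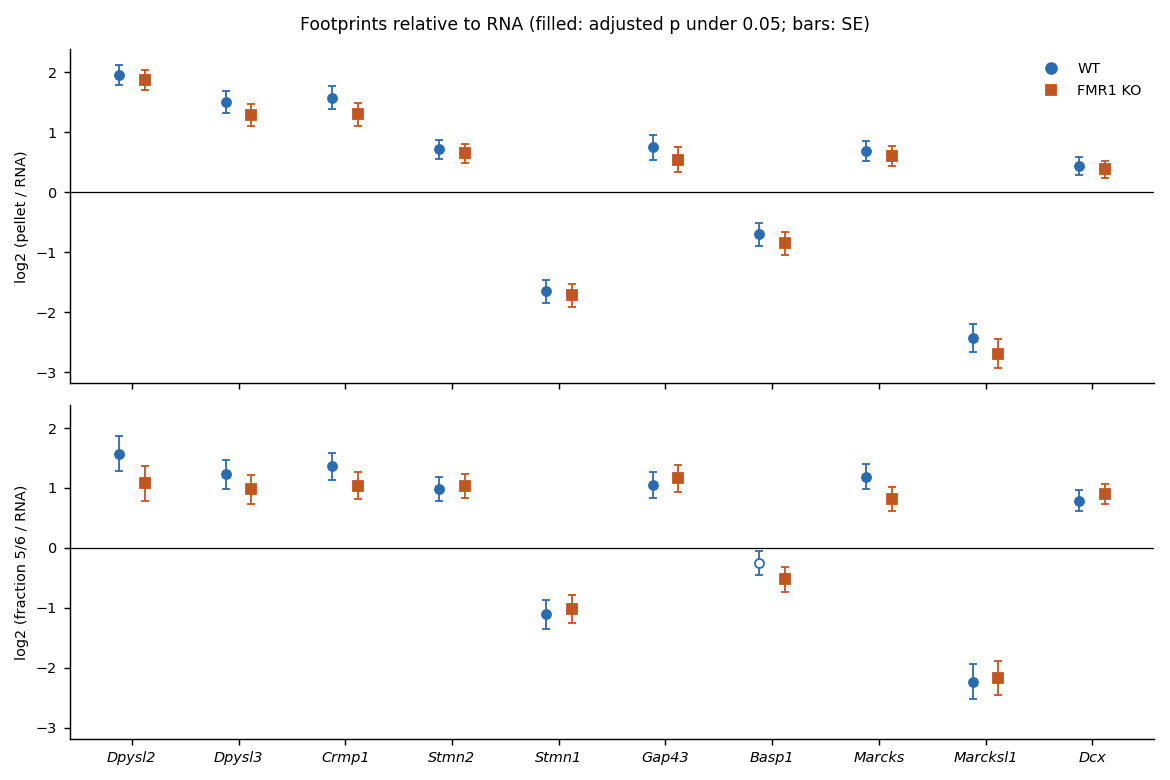
Log2 ratio of RPFs to RNA for the 10 members, with the pellet above and fraction 5/6 below, WT as blue circles and FMR1 KO as orange squares, bars for the SE and filled symbols for an adjusted p under 0.05. In both fractions 7 members lie above 0, led in the WT pellet by Dpysl2 at 1.96, and Stmn1, Basp1 and Marcksl1 lie below it, with Basp1 in WT fraction 5/6 at -0.25 as the open symbol.

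RPFs cover the coding sequence and RNA-seq the whole transcript, so the ratio also depends on how much of a transcript is coding. The coding share of the listed transcript was 22.9% for Marcks, 25.9% for Stmn2, 36.5% for Basp1, 37.4% for Marcksl1 and 38.0% for Dpysl2, against a median of 59.0% over protein-coding genes. It was 46.2% for Stmn1, 48.0% for Gap43, 59.1% for Crmp1, 81.0% for Dcx and 81.2% for Dpysl3. After scaling by this share relative to the median, the log2 ratio in WT was 2.59 for Dpysl2, 2.05 for Marcks, 1.90 for Stmn2, 1.58 for Crmp1, 1.05 for Gap43 and 1.04 for Dpysl3. It was -0.01 for both Dcx and Basp1, -1.30 for Stmn1 and -1.77 for Marcksl1. Marcks and Stmn2 moved next to Dpysl2, while Dcx and Basp1 no longer stood away from 0. For Dcx and Dpysl3 the listed transcripts carry only 253 and 396 noncoding bases, and over all annotated exons their coding shares were 8.68% and 34.4%, so that the scaled value of these genes rests on which transcript is taken. The same holds for Stmn2, Stmn1 and Crmp1, with coding shares of 9.59%, 23.8% and 29.8% over all exons.

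Neuronal markers moved the same way between RNA-seq and pellet. The 5 of them summed to 6573 to 7903 normalised CPM in the 6 pellet libraries and to 2603 to 3370 in RNA-seq. The 5 astrocyte markers summed to 506 to 652 and 208 to 314, the 4 progenitor markers to 374 to 537 and 170 to 221, and the 5 erythroid markers to 6.30 to 21.1 and 139 to 328. The part of cell types in the members' ratios was not tested. In the low nuclease libraries, where RNA-seq was uneven, 5 members were higher and 3 lower in WT, and 4 and 2 in FMR1 KO, where 23.0% and 18.9% of 16034 genes were higher and lower in WT and 22.2% and 19.3% in FMR1 KO. There Gap43 stood at -0.13 in FMR1 KO. Its RNA-seq level was 415 normalised CPM in replicate 1 and 955 and 1219 in replicates 2 and 3, which are among the uneven libraries. The pellet had 830, 692 and 774. In the standard libraries scaled by library size alone, the median gene stood at -2.13 in WT and -2.32 in FMR1 KO. No member was then higher and 7 and 9 were lower, as were 84.1% and 86.6% of all genes. Relative to the median gene all 10 kept their direction. That is no separate check, since the scaling moves all genes of a comparison by nearly the same amount.

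Footprints of fraction 5/6 were set against the same RNA-seq libraries. Of the 10, 7 were higher and 2 lower than in WT RNA-seq, and 7 and 3 in FMR1 KO, where 31.0% and 30.4% of all 16372 genes tested were higher and lower in WT, and 27.9% and 29.9% in FMR1 KO. Dpysl2 had 2699 and 2695 normalised CPM in replicates 1 and 2 of WT and 5190 in the library that goes against its label, and 2421, 3218 and 2730 in FMR1 KO. With that library its log2 ratio in WT was 1.57 ± 0.29 (adjusted p = 7.3e-04), and without it 1.16 ± 0.20 (adjusted p = 4.9e-04), close to the 1.08 ± 0.29 (adjusted p = 0.0077) of FMR1 KO. Crmp1 and Dpysl3 went from 1.36 and 1.23 to 1.20 and 0.97 in WT without it. Stmn2, Gap43, Marcks and Dcx had 0.98, 1.05, 1.19 and 0.79 in WT with all libraries, and 1.04, 1.16, 0.82 and 0.90 in FMR1 KO, all past the threshold. Stmn1 had -1.11 and -1.02 and Marcksl1 -2.23 and -2.17 in WT and FMR1 KO. Basp1 had -0.25 ± 0.20 (adjusted p = 0.31) in WT and -0.52 ± 0.21 (adjusted p = 0.048) in FMR1 KO. The ratios of pellet and fraction 5/6 are not independent, since they share RNA-seq. By library size alone, with the median gene at -2.24 in WT and -1.92 in FMR1 KO, 0 members were higher and 7 and 3 lower, as were 83.5% and 75.9% of all genes.

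Enrichment compared the pellet with fraction 5/6 directly, with values above 0 for the 3 collapsin response mediator proteins and below 0 for the other 7 members. With all standard libraries no member passed the threshold in WT or in FMR1 KO, where among all genes nearly none did (0.00732% and 0% of 13664 called). At an unadjusted p under 0.05 there were 0 members in WT and 4 in FMR1 KO, and 1604 and 3578 of all genes. DESeq2 called 0 members in WT, and 0.483% of all genes. In FMR1 KO it called Dpysl2 higher and Gap43 and Dcx lower, with 8.51% of all genes higher and 2.75% lower. The library labelled WT fraction 5/6 replicate 3 enters the spread of both genotypes. Without it, the pellet was higher for 10.4% of 13950 genes in WT and 10.9% in FMR1 KO, and 1 of the 10 members, Dpysl2, was higher in both.

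Dpysl2 was 0.90 ± 0.24 (SE, adjusted p = 0.038) higher on the log2 scale in the WT pellet without that library, and 0.88 ± 0.21 (adjusted p = 0.025) in FMR1 KO. With it, the values were 0.49 ± 0.32 (adjusted p = 0.52) and 0.89 ± 0.33 (adjusted p = 0.13). Its pellet libraries of both genotypes, from 3997 to 5343 normalised CPM, were above the other 5 fraction 5/6 libraries, from 2421 to 3218. Dpysl3 was at 0.64 ± 0.22 (adjusted p = 0.091) and 0.40 ± 0.20 (adjusted p = 0.20), and Crmp1 at 0.48 ± 0.20 (adjusted p = 0.15) and 0.35 ± 0.18 (adjusted p = 0.22), in WT and FMR1 KO. The other 7 members had values below 0 in both genotypes, and none of these passed the threshold. Stmn1 was nearest to it, at -0.67 ± 0.20 (adjusted p = 0.058) and -0.61 ± 0.19 (adjusted p = 0.056). Gap43 was at -0.33 ± 0.21 (adjusted p = 0.34) and -0.53 ± 0.19 (adjusted p = 0.094).

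**Figure D4:**
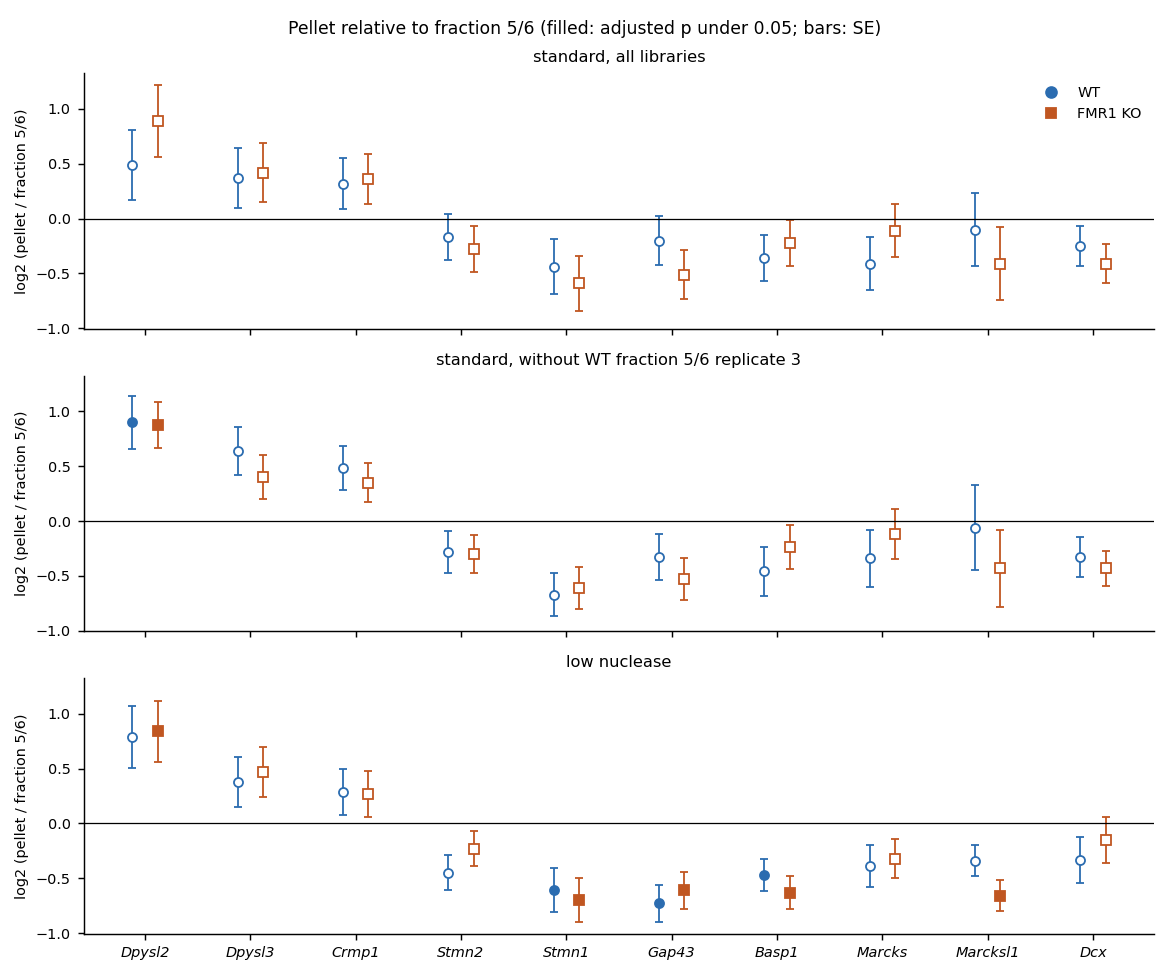
Log2 ratio of pellet to fraction 5/6 for the 10 members, WT as blue circles and FMR1 KO as orange squares, bars for the SE and filled symbols for an adjusted p under 0.05. From top to bottom are all standard libraries, the standard libraries without the one labelled WT fraction 5/6 replicate 3, and the low nuclease libraries. Dpysl2, Dpysl3 and Crmp1 lie above 0 and the other 7 below it in every panel.

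The low nuclease preparation gave a separate set of pellet and fraction 5/6 libraries. In FMR1 KO, Dpysl2 was higher in the pellet and Stmn1, Gap43, Basp1 and Marcksl1 lower, and in WT 0 members were higher and Stmn1, Gap43 and Basp1 lower. Among all 15895 genes 13.5% were higher and 12.9% lower in WT, and 12.3% and 16.4% in FMR1 KO. Dpysl2 had 3069, 3529 and 2758 normalised CPM in the WT pellet and 1988, 2374 and 1125 in WT fraction 5/6, and 4181, 2882 and 2750 against 2088, 1419 and 1862 in FMR1 KO. The lowest pellet library was above the highest fraction 5/6 library in both genotypes. Its log2 ratio was 0.79 ± 0.28 (adjusted p = 0.065) in WT and 0.84 ± 0.28 (adjusted p = 0.049) in FMR1 KO.

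Gap43 went the other way, with 744, 688 and 601 normalised CPM in the low nuclease WT pellet and 1258, 1073 and 1038 in fraction 5/6. Its log2 ratio was -0.73 ± 0.17 (adjusted p = 0.014) in WT and -0.61 ± 0.17 (adjusted p = 0.026) in FMR1 KO. Basp1 had 444, 385 and 367 against 598, 541 and 525 in WT, with log2 ratios of -0.47 ± 0.15 (adjusted p = 0.040) and -0.63 ± 0.15 (adjusted p = 0.012). Stmn1 was at -0.61 ± 0.20 (adjusted p = 0.045) and -0.70 ± 0.20 (adjusted p = 0.025), and Marcksl1 at -0.34 ± 0.14 (adjusted p = 0.10) and -0.66 ± 0.14 (adjusted p = 0.0082). For Gap43 and Basp1 the WT libraries of the 2 fractions did not overlap. None of these calls remained when any 1 replicate number was left out of all groups, with 0 members called each time, and that of Dpysl2 ended also with Cdk8 left out.

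The difference in enrichment between FMR1 KO and WT was tested as an interaction, and 0 members and 0% of the 13664 genes passed the threshold (edgeR, with 0 members and 770 genes at an unadjusted p under 0.05, and 0 members by DESeq2). The differences ranged from -0.31 ± 0.47 for Marcksl1 to 0.41 ± 0.46 for Dpysl2 on the log2 scale. Without the library that goes against its label, the members ranged from -0.37 to 0.22, and again 0 passed.

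The level of some members in the pellet differed between the preparations. Stmn2, Gap43 and Basp1 were higher and Marcksl1 lower in the standard than in the low nuclease WT pellet, where 16.4% of 15304 genes were higher and 22.6% lower. In FMR1 KO, Stmn2 and Basp1 were higher and Marcksl1 lower, with 13.5% and 15.2% of all genes. Stmn2 had 1027, 1008 and 884 normalised CPM in the low nuclease WT pellet, below every standard pellet library, and the log2 ratio of standard to low nuclease was 0.79 ± 0.16 (adjusted p = 0.0054) in WT and 0.66 ± 0.16 (adjusted p = 0.014) in FMR1 KO. Basp1 was at 0.52 ± 0.17 (adjusted p = 0.033) and 0.57 ± 0.17 (adjusted p = 0.032), and Gap43 at 0.60 ± 0.18 (adjusted p = 0.027) and 0.38 ± 0.18 (adjusted p = 0.13). Marcksl1 had 263, 230 and 244 in the low nuclease WT pellet, above its standard libraries, with -0.76 ± 0.23 (adjusted p = 0.028) and -0.90 ± 0.23 (adjusted p = 0.020). Its many copies elsewhere in the genome limit that value, and with 1 replicate number left out of all groups 0 or 1 members were called in either genotype. Without FMR1 KO pellet replicate 2, 1 of the 3 calls in FMR1 KO remained, that of Stmn2. By library size alone the median gene stood at -1.39 in WT and -1.62 in FMR1 KO, and 0 members were higher and 7 and 10 lower, as were 88.7% and 91.0% of all genes.

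Loss of FMRP was compared in each kind of library. In RNA-seq 0 members passed the threshold, as for 0.0736% of 16307 genes (12 called), with 0 members at an unadjusted p under 0.05 and 0 by DESeq2. All 10 members had values above 0 in FMR1 KO, from 0.06 ± 0.12 (SE) for Marcksl1 to 0.26 ± 0.12 for Dcx on the log2 scale. Their median was 0.14 and that of all genes 0.00. The 10 values come from the same libraries, so their signs are not independent, and the share of all genes above 0 was not counted. With a replicate number left out, Dpysl2, Crmp1 or Marcksl1 had a value below 0. Dcx had 555, 530 and 502 normalised CPM in WT RNA-seq and 595, 612 and 714 in FMR1 KO, which do not overlap, and its adjusted p was 1.00. The neuronal markers summed to 2603 to 3139 in WT and 2994 to 3370 in FMR1 KO RNA-seq, and their part in these values was not tested.

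In the pellet 0 members differed between FMR1 KO and WT, where 0.0150% of 13356 genes were called, with values from -0.18 ± 0.28 for Marcksl1 to 0.21 ± 0.17 for Dcx. In fraction 5/6 it was 0 members, and 0% of 13062 genes, with values from -0.39 ± 0.42 for Dpysl2 to 0.36 ± 0.24 for Dcx. No member was under an unadjusted p of 0.05 in either, whereas 707 and 590 of all genes were, and DESeq2 called 0 members in both. Occupancy of the pellet, tested as an interaction, differed in 0 members and in 0.0673% of 16345 genes, with 0 members under an unadjusted p of 0.05 and 0 by DESeq2. Its values lay from -0.28 ± 0.27 for Crmp1 to -0.07 for Stmn1, Stmn2 and Dcx, with all 10 below 0. The median was -0.12 for the members and -0.01 for all genes. Without FMR1 KO pellet replicate 2, the members lay from -0.27 to 0.03, with Dpysl2 and Marcks above 0. The pellet ratio and the RNA-seq difference share the RNA-seq libraries, so these 2 signs are not independent. In fraction 5/6 without the library that goes against its label, the members ranged from -0.21 to 0.28 and 0 passed.

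**Figure D5:**
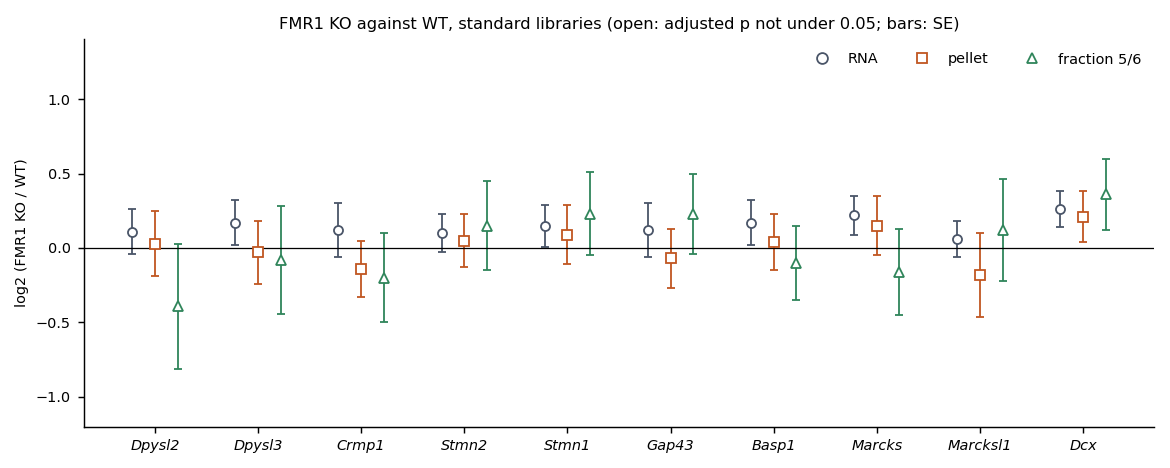
Log2 ratio of FMR1 KO to WT for the 10 members in standard RNA-seq (grey circles), pellet (orange squares) and fraction 5/6 (green triangles), with bars for the SE and open symbols for an adjusted p of 0.05 or more. The RNA-seq values lie between 0.06 and 0.26 and the footprint values on both sides of 0.

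Close paralogs were higher in footprints of the pellet than in RNA-seq. The 6 listed are the stathmins Stmn3 and Stmn4, the collapsin response mediator proteins Dpysl4 and Dpysl5 and the doublecortin-like kinases Dclk1 and Dclk2. All 6 passed the threshold in both genotypes, with median log2 ratios of 1.29 in WT and 1.10 in FMR1 KO. Among all 16345 genes, 31.7% were higher in WT and 32.9% in FMR1 KO. In WT the values were 1.89 for Dpysl4, 1.87 for Stmn4, 1.31 for Dpysl5, 1.27 for Dclk1, 0.96 for Stmn3 and 0.56 for Dclk2 (adjusted p from 3.2e-07 to 0.0018). Their coding windows had no copies elsewhere. Between pellet and fraction 5/6 of the low nuclease WT libraries, Dpysl5 was higher at 0.70 (adjusted p = 0.048) and Stmn3 and Stmn4 lower at -0.57 (adjusted p = 0.019) and -0.53 (adjusted p = 0.021). In FMR1 KO only Stmn3 was called, at -0.63 (adjusted p = 0.012), with Dpysl5 at 0.57 (adjusted p = 0.092) and Stmn4 at -0.32 (adjusted p = 0.11). Among all 15895 genes 13.5% were higher and 12.9% lower in WT, and 12.3% and 16.4% in FMR1 KO.

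Of 34 other growth cone genes (adhesion molecules, actin and microtubule regulators), 20 were higher and 8 lower in the WT pellet than in RNA-seq. In FMR1 KO the counts were also 20 and 8, and the median log2 ratios were 0.62 in WT and 0.50 in FMR1 KO. Among all 16345 genes 31.7% were higher and 34.8% lower in WT, and 32.9% and 33.8% in FMR1 KO. The highest of the 34 in WT were the adhesion molecule L1cam at 2.45 (adjusted p = 1.2e-04) and the microtubule-associated Map1b at 2.35 (adjusted p = 4.0e-06). Rtn4, which encodes the outgrowth inhibitor Nogo, followed at 2.01 (adjusted p = 4.6e-07). The lowest were Evl, an actin regulator of the Ena/VASP family, at -2.27 (adjusted p = 7.1e-07), the membrane protein gene Palm at -2.17 (adjusted p = 1.6e-07) and the cofilin gene Cfl1, with means of 435 normalised CPM in the pellet and 932 in RNA-seq (adjusted p = 6.8e-04). Between low nuclease pellet and fraction 5/6, 8 of the 34 were higher and 7 lower in WT, and 8 and 9 in FMR1 KO. There L1cam was at 3.16 (adjusted p = 5.9e-04) and Map1b at 2.34 (adjusted p = 0.0027) in WT. Among all 15895 genes 13.5% were higher and 12.9% lower in WT, and 12.3% and 16.4% in FMR1 KO. Between FMR1 KO and WT, 0 of the 34 passed in RNA-seq, pellet or fraction 5/6. Among all genes nearly none did (0.0736%, 0.0150% and 0%).

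The 10 members did not share 1 profile over the 12 groups. The correlation of a member's group means with the mean of the members was 0.953 for Stmn2, 0.897 for Marcks, 0.848 for Dcx and 0.763 for Gap43. It was 0.647 for Crmp1, 0.531 for Dpysl2 and 0.518 for Dpysl3, and -0.0754 for Basp1, -0.265 for Stmn1 and -0.470 for Marcksl1. Each member is itself part of this mean, which raises its correlation. Values of other genes, which are not part of it, are thus not directly comparable. Among 16527 genes, those with the profile most like the mean were Lrrc59 (r = 0.977), Srsf2 (0.971), Cdo1 (0.968), 1110012L19Rik (0.967) and Mettl23 (0.963), each over 12 groups that share preparations and depth.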

How the data were processed

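Counts and peak lists of 36 and 12 libraries were analysed. The authors trimmed reads with Cutadapt 2.10, removed ribosomal and non-coding RNA with Bowtie2 2.3.5, aligned to GRCm38 with STAR 2.7.8a, removed duplicates with Picard and SAMtools 1.19.2 and deposited whole-number counts per gene from featureCounts 2.2.0. The deposited peaks give the coverage height (signal) of intervals called by the authors per library on Ensembl 102 transcripts, without scaling.

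Protein-coding genes (GENCODE M21) passing filterByExpr (minimum count 10) were normalised by TMM and tested in edgeR 4.0.16 (R 4.3.3) with its quasi-likelihood test, and DESeq2 1.42.0 was an alternative. Groups followed the labels. WT and FMR1 KO groups of a comparison shared 1 estimate of the spread. The study describes its replicates as biological preparations, which the labels do not state, and p-values measure the spread between them. Cdk8 stayed in the tests but not in the printed levels. Replicate numbers were not taken as pairs. Of 18 correlations of same-numbered libraries, 11 were at or under 0.1 and the highest was 0.329. This does not show that no samples were paired. Transcript sequences were read by coordinates, where 895 of 900 windows of the study's supplement (99.4%) were identical. The fits were tested on simulated data. All 10 members, the paralogs, the 3 highest and 3 lowest other growth cone genes and the 5 genes most alike were named. Members and lists were chosen with earlier results of these data known.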

Additional observations from a re-analysis of the deposited data

Results flagged for a closer look

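A signal lay in data outside the comparisons. Dcx had no peak on the transcript that the count table lists, but another Dcx transcript had peaks in all 12 peak lists, with a lowest number of 20 and a highest of 24. By the zenith measure, none of these recurred within 6 nt in all 6 pellet libraries. Shared stretches were not counted separately for this transcript. In comparison, the 10 listed transcripts together had 31 to 46 peaks in a library.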

How the results depend on the processing

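Members called moved from 10 to 6 with the low nuclease libraries for pellet against RNA-seq in FMR1 KO, and from 10 to 3 by library size alone for fraction 5/6 against RNA-seq in FMR1 KO. For pellet against fraction 5/6, 1 was called in WT and 1 in FMR1 KO without the library labelled WT fraction 5/6 replicate 3, and 3 in FMR1 KO by DESeq2. For standard against low nuclease pellet it was 7 in WT and 10 in FMR1 KO by library size alone, 6 in FMR1 KO by DESeq2 and 1 without FMR1 KO pellet replicate 2. For low nuclease pellet against fraction 5/6 in WT it was 5 by DESeq2 and 6 by library size alone. With the replicate number as a block it was 6 there, and over all single-gene values 2 calls were lost and 3 gained, but the numbers were not taken as pairs. With a replicate number left out in turn, 5 to 10 members were called for fraction 5/6 against RNA-seq in FMR1 KO, 0 to 1 for standard against low nuclease pellet in each genotype (4 in WT without FMR1 KO pellet replicate 2), and 0 for low nuclease pellet against fraction 5/6 in each genotype. The peak difference ranged from -3.50 to 4.50, and recurrent zeniths from 3 to 7. Recurrent zeniths were 0 at 3 nt, 9 at 12 nt, 0 with all 6 zeniths within 6 nt of each other, and 11 for shared stretches. Called single values that turned sign were those of Gap43 and Dcx for pellet against RNA-seq and of Basp1 for fraction 5/6 against RNA-seq. Gap43 did so in FMR1 KO (-0.13) with the low nuclease libraries, where RNA-seq was uneven. Dcx in WT (-0.01) and FMR1 KO (-0.08) and Basp1 in FMR1 KO (0.17) did so when scaled by coding share. Values that were not called also turned sign, such as Basp1 for fraction 5/6 against RNA-seq in WT (0.44 by coding share) and, without WT fraction 5/6 replicate 3, Dpysl2 for enrichment (-0.03) and fraction 5/6 (0.02) of FMR1 KO against WT. The cause was not tested. Scaling by coding share, leaving out FMR1 KO pellet replicate 2, the FMR1 KO comparisons without WT fraction 5/6 replicate 3 and the last 2 peak measures were chosen after seeing the data. The shallowest library, of fraction 5/6, had 6765065 counts, 4284209 of them outside Cdk8, and counting error is largest there.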
